A study of Mus musculus with 4 samples.

Results

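The neuropeptide precursor genes Sst, Npy, Vip, Cck, Tac1, Crh, Pdyn, Penk, Cort and Cartpt were followed through 4 RNA-seq libraries of the mouse brain. They were chosen by symbol from a named list, and all 10 were found among the 24421 genes of the deposited tables. Libraries came from hand-picked fluorescent cells, 100 per library. The 2 excitatory libraries hold cells positive for αCaMKII, a kinase of forebrain glutamatergic neurons. The 2 inhibitory libraries hold cells positive for vGAT, the transporter that fills synaptic vesicles with GABA. Per the labels, αCaMKII-Cre and vGAT-IRES-Cre mice were kept by crossing to wild-type C57Bl/6J mice, and males aged 3 to 5 months were used. The labels of these libraries name no mutation, treatment, fluorescent reporter, brain region or number of animals. Cells were therefore defined by which Cre line marked them, and each library is a pool. The series as a whole concerns ERK signalling in a mouse model of Noonan syndrome, and these libraries compare the transcripts of the labelled cell types.

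Neuropeptides are made as long precursors that are cut at pairs of basic residues in the secretory pathway, stored in dense-core vesicles and released to act on G protein-coupled receptors. In the cortex and hippocampus several of the precursor genes mark subclasses of GABAergic interneurons. Sst, Npy, Vip, Cort and Cck are used in this way. Cck is also transcribed in many pyramidal neurons and Pdyn in granule cells of the dentate gyrus, so the set is not restricted to inhibitory cells.

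Sequences bear on the values at the coding ends of Sst and Cort. Somatostatin and cortistatin are related peptides, and reads from so similar a stretch could be assigned to either gene. Below are 36 coding bases from the last exon of each gene on GRCm38, 5′ to 3′ on the minus strand, with capitals at the positions where the genes share a base. They lie at chr16:23889732-23889767 for Sst and chr4:149125270-149125305 for Cort.
Sst: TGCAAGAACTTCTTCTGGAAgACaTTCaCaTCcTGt
Cort: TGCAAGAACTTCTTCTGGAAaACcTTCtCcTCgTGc
The bases were identical at 30 of the 36 positions. The longest run shared by the whole transcripts, of 721 bases for Sst and 677 bases for Cort, was 21 bases. Reads that reach past this run differ between the genes. Which tool counted the reads is not given in the sources used here, so no share of such reads can be stated.

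The start regions of 8 of the 10 genes were in the RefSeq promoter table for GRCm38.p6, with 250 bases before and 50 bases after each start. They were searched on both strands for the cyclic AMP response element TGACGTCA and for its core TGACG, which lies within the full element. These motifs are shown because CREB, the factor known to bind them, is a textbook regulator of neuropeptide genes. The full element was present for Sst and Cartpt. It was present in 1.79% of 32851 start regions of the same length. The core was present for 6 of the 8 genes, Sst, Cartpt, Cck, Cort, Tac1 and Vip, and in 20.8% of all start regions. Windows of 30 bases around the motif follow, on the gene's own strand, with the motif or its reverse complement in capitals.
Sst, chr16:23890874-23890903: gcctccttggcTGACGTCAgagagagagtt
Cartpt, chr13:99900777-99900806: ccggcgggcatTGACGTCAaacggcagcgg
Vip, chr10:5639126-5639155: gggatcactactgTGACGtctttcggggag
Cck, chr9:121495725-121495754: tcctgctggactgCGTCAgcactgggtaaa
Cort, chr4:149126765-149126794: gctccggcttgtgCGTCAccgcgtgagtgt
Tac1, chr6:7555005-7555034: ggctctacaggctCGTCAcgcctgagataa
The Sst element began 48 bases and the Cartpt element 112 bases before the RefSeq start. In GENCODE M21 the windows of Sst, Cartpt and this Tac1 core lie inside the gene, whose annotated start is further upstream. Tac1 had a further core 197 bases before its start. The windows of Npy and Pdyn held neither motif. A match is a description of letters and not a measured binding site.

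The tables give a gene as a log2 value, read here as log2(scaled reads) with scaled reads under 1 listed at 0. A positive difference below means a higher value in the excitatory libraries, in log2 units. Each library had 12609 to 12798 genes above 0. Depth, estimated from the step between low values, was about 61900000 to 74200000 reads per library. The lowest values above 0 correspond to about 1 read in the excitatory libraries and about 2 reads in the inhibitory libraries, so a listed 0 can hide a single read in inhibitory libraries and not in excitatory ones. Mbp, a myelin gene, was the highest gene of every library and had the same value of 21.331 in all 4. It was the only gene above 0 with 1 value throughout. The median difference over the 13619 genes tested was 0.52, a 1.43-fold shift, and -0.01 after median-of-ratios scaling. The differences of the neuropeptide genes are therefore given in the deposited values and after that scaling. Whether the libraries of a label came from different mice is not stated, so the p-values reflect only how far these libraries differ, which may be technical. With 2 libraries per label an exact permutation test of a single gene cannot give a p below 0.333. Tests are from limma, fitted to all tested genes, and a gene passed at a Benjamini-Hochberg adjusted p under 0.05.

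The markers of the labels were split. Camk2a, the gene of αCaMKII, had 16.53 and 16.47 in excitatory libraries, against 15.60 and 15.66 in inhibitory libraries. Of 10 glutamatergic markers, all tested, 6 were higher in excitatory and 2 in inhibitory libraries, against 45% and 26.8% of all tested genes. After scaling the counts were 5 and 3, against 32.3% and 33.5%. Slc17a6, a vesicular glutamate transporter gene, had 9.08 and 8.49 in excitatory libraries and was at 0 in both inhibitory ones. Neurod6, a transcription factor gene of pyramidal neurons, was 1.56 higher in excitatory libraries (SE 0.15). Slc32a1, which encodes vGAT, was at 0 in every library, so a listed 0 is not read here as absence. Gad1, which encodes a GABA-synthesizing enzyme, had 10.91 and 11.17 in excitatory libraries and 11.45 and 11.59 in inhibitory libraries. After scaling Gad1 passed, with -1.02 (limma adjusted p = 0.00798), and in the deposited values it did not, with -0.48 (0.0649). Gad2, which encodes another such enzyme, had 9.73 and 10.39 in excitatory libraries and 10.14 and 10.13 in inhibitory libraries. Gad2 did not pass in the deposited values, with -0.08 (limma adjusted p = 0.824), or after scaling, with -0.61 (0.14). Of 17 tested interneuron markers other than peptides, 8 were higher in excitatory and 3 in inhibitory libraries, against 45% and 26.8% of all tested genes. After scaling the balance turned to 5 and 6, against 32.3% and 33.5%. The summed level of that list was 15.20 to 15.44 in excitatory and 14.81 to 14.89 in inhibitory libraries. Slc32a1, Reln and Chodl of the list were at 0 throughout. Directions below are between libraries so labelled, and fewer cells of a type cannot be told apart from less RNA per cell.

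Of the 10 neuropeptide genes, 5 were above 0 in all 4 libraries, 3 were above 0 in excitatory libraries only, and 2 were listed at 0 throughout. Pdyn, Sst, Tac1, Cartpt and Cck passed the test as higher in excitatory libraries and Npy as higher in inhibitory libraries. Cort and Vip did not pass, and Crh and Penk could not be tested. The 6 calls among 8 tested genes stand against 71.8% of all tested genes called. By direction, the 5 and 1 calls stand against 45% of all tested genes called higher in excitatory and 26.8% called higher in inhibitory libraries. The count of calls is thus near the background. Tac1, Cartpt and Vip entered the test only through the excitatory libraries, where they are above 0. Likewise, every tested gene below that is at 0 in both libraries of 1 label entered only through the other label. Its zeros have no spread, so its p is not separate support for its direction. The median difference of the 5 genes above 0 in all 4 libraries was 0.75, that of Cort, beside 0.54 over the 10543 tested genes above 0 in all 4. After scaling these medians were 0.21 and 0.003. After median-of-ratios scaling 4 were higher in excitatory libraries and 1 in inhibitory libraries, since Cck no longer passed, against 65.8% of all tested genes called, 32.3% as higher in excitatory and 33.5% as higher in inhibitory libraries. Without either inhibitory library only the calls of Sst and Pdyn were left.

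**Figure D1:**
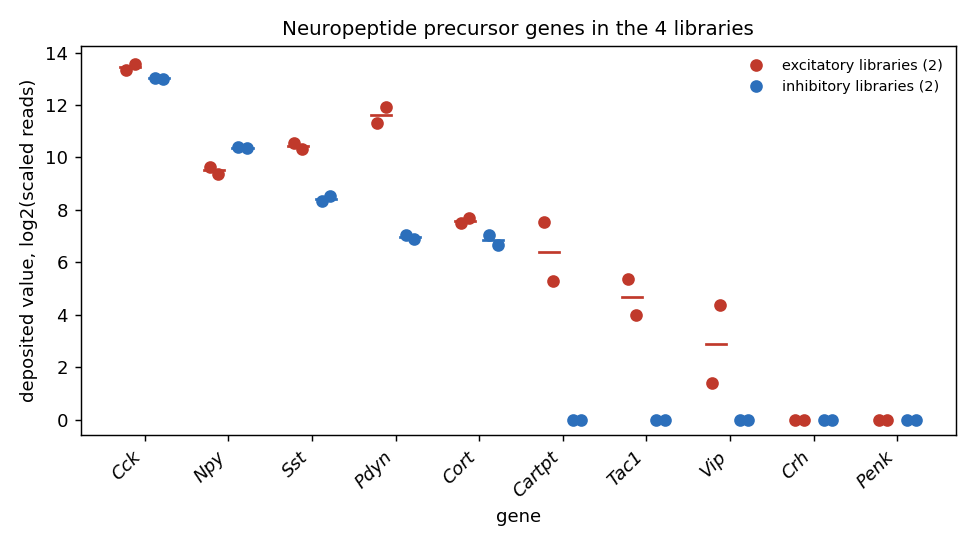
Deposited value (log2(scaled reads), vertical axis) of each neuropeptide gene (horizontal axis, ordered by mean) in the 2 excitatory libraries (red) and the 2 inhibitory libraries (blue); lines are means, drawn where both libraries are above 0. Pdyn, Sst, Cck and Cort lie higher in both excitatory libraries and Npy in both inhibitory libraries. Cartpt, Tac1 and Vip are at 0 in each inhibitory library.

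Prodynorphin showed the widest gap among the genes above 0 in all 4 libraries. Pdyn, the precursor of the dynorphins that act on the kappa opioid receptor, had 11.32 and 11.91 in excitatory libraries, against 7.05 and 6.89 in inhibitory libraries. It was high in each excitatory library and low in both inhibitory ones. The difference was 4.64 (SE 0.29, limma adjusted p = 0.000237), a 25-fold higher level in excitatory libraries. After scaling it was 4.11 (adjusted p = 0.00059). These values rest on an estimated 1969 and 3124 reads in excitatory libraries and 184 and 136 reads in inhibitory libraries. Pdyn lies at chr2:129686565-129699844 of GRCm38, on the minus strand.

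Sst was likewise higher in the libraries labelled excitatory. Sst, the somatostatin precursor and the marker of a large dendrite-targeting interneuron class, had 10.54 and 10.33 in excitatory libraries and 8.34 and 8.51 in inhibitory libraries. The 2 libraries of a label lay close together. The difference was 2.01 (SE 0.22, limma adjusted p = 0.00129), or 4.02-fold. It was 1.47 after scaling (adjusted p = 0.00354), or 2.77-fold. The estimated reads were 1147 and 1043 in excitatory libraries and 451 and 417 in inhibitory libraries. Sox6 is a transcription factor gene of the interneurons that include the Sst class. It had 12.614 and 12.505 in excitatory libraries and 12.474 and 12.831 in inhibitory libraries. Sox6 did not pass in the deposited values (limma adjusted p = 0.646), and was -0.63 after scaling (adjusted p = 0.0184). Lhx6, of the same interneurons, had 11.95 and 11.29 in excitatory libraries and 4.69 and 7.53 in inhibitory libraries. It lost its call without excitatory replicate 1 (limma adjusted p = 0.172) or excitatory replicate 2 (0.148).

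Cort, the cortistatin precursor that is transcribed in part of the interneurons with Sst, did not pass the test. Cort had 7.48 and 7.70 in excitatory libraries, against 7.03 and 6.65 in inhibitory libraries. Both excitatory values lay above both inhibitory ones. The difference was 0.75 (SE 0.31, limma adjusted p = 0.0854). Scaling brought it to 0.21 (adjusted p = 0.595). The log2 ratio of Sst to Cort in the same library was 3.06 and 2.63 in excitatory libraries, against 1.31 and 1.86 in inhibitory libraries. That within-library ratio does not depend on how libraries were scaled.

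Npy moved the other way. Npy, the neuropeptide Y precursor of neurogliaform cells and of part of the Sst class, had 9.64 and 9.37 in excitatory libraries, against 10.41 and 10.34 in inhibitory libraries. Both inhibitory libraries were above both excitatory ones. The difference was -0.87 (SE 0.21, limma adjusted p = 0.0171) in the deposited values. It was -1.41 after scaling (adjusted p = 0.00389). In the deposited values the call was lost when excitatory replicate 2 (limma adjusted p = 0.0562) or inhibitory replicate 1 (0.108) or 2 (0.0965) was left out. Estimated reads were 614 and 535 in excitatory libraries and 1884 and 1483 in inhibitory libraries. Lamp5, a marker of neurogliaform cells, was at 0 in each excitatory library, with 9.75 and 9.33 in inhibitory libraries. Nos1, another of the interneuron markers, went the other way, with a difference of 2.70 (SE 0.68). It had 8.805 and 7.913 in excitatory libraries and 4.845 and 6.476 in inhibitory libraries. The call of Nos1 was lost whichever library was left out.

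Cck had the highest level per kilobase of exon of these genes under either label. Cck, the cholecystokinin precursor of basket cells and pyramidal neurons, had 13.34 and 13.57 in excitatory libraries, against 13.04 and 12.99 in inhibitory libraries. The difference of 0.44 (SE 0.13, limma adjusted p = 0.032) was below the median of all tested genes, and scaling turned it to -0.10 (adjusted p = 0.598). The deposited call was lost when excitatory replicate 2 (limma adjusted p = 0.0766) or inhibitory replicate 1 (0.16) or 2 (0.179) was left out. Cnr1, the cannabinoid receptor gene of Cck basket cells, had 8.62 and 8.48 in excitatory libraries and 1.499 and 2.382 in inhibitory libraries.

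**Figure D2:**
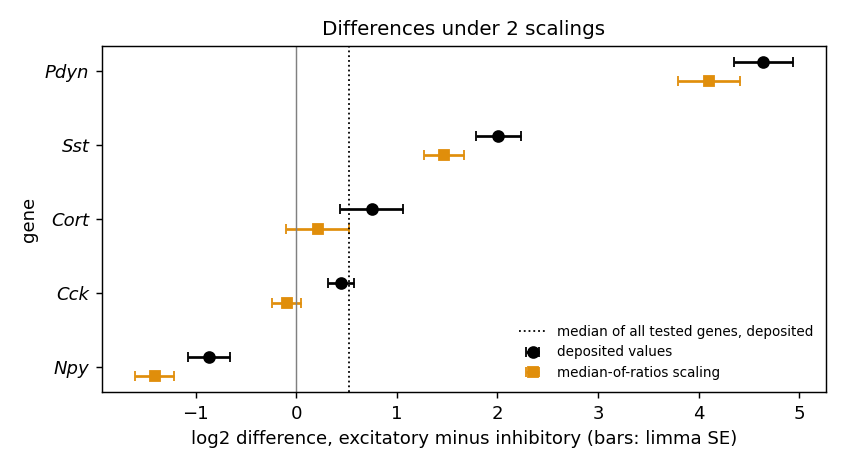
Log2 difference, excitatory minus inhibitory, with its limma SE (horizontal axis) for the 5 neuropeptide genes above 0 in all 4 libraries, in the deposited values (black) and after median-of-ratios scaling (orange). The dotted line marks the median of all tested genes, 0.52; Pdyn and Sst lie to its right and Npy to its left, while Cck lies beside it and is on the other side of 0 after scaling.

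Tac1, Cartpt and Vip were listed at 0 in each inhibitory library. Tac1, the precursor of substance P and neurokinin A, had 5.365 and 3.999 in excitatory libraries, on an estimated 32 and 13 reads (limma adjusted p = 0.00181). Cartpt, whose product is the cocaine- and amphetamine-regulated transcript peptide, had 7.52 and 5.30 in excitatory libraries, on an estimated 142 and 32 reads (limma adjusted p = 0.00203). The 2 excitatory libraries differed more for Cartpt than for Sst, Npy, Cck, Pdyn or Cort. Neither gene passed without inhibitory replicate 1 or 2, with limma adjusted p of 0.0755 and 0.0747 for Tac1 and of 0.0931 and 0.0923 for Cartpt.

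Vip, the precursor of vasoactive intestinal peptide and the marker of interneurons that contact other interneurons, had 1.40 and 4.37 in excitatory libraries. These correspond to an estimated 2 and 17 reads, and the test did not pass (limma adjusted p = 0.0599). Calb2, a calcium-binding protein gene of part of the Vip class, was lower in excitatory libraries, at 1.98 and 2.89 against 8.34 and 7.15 in inhibitory libraries. It lost its call without excitatory replicate 1 (limma adjusted p = 0.0677) or excitatory replicate 2 (0.0564). Adarb2, a gene of the interneuron lineage that includes the Vip class, went the other way, with 10.52 and 8.88 in excitatory libraries and 6.59 and 6.88 in inhibitory libraries (limma adjusted p = 0.00984). Its call was lost without inhibitory replicate 1 (0.178) or 2 (0.156). Prox1, of the same lineage, had 5.69 and 6.54 in excitatory libraries and 2.97 and 5.01 in inhibitory libraries and did not pass (limma adjusted p = 0.0666). Htr3a, the serotonin receptor gene of the interneurons that include the Vip class, had 2.97 and 0 in excitatory libraries and 11.25 and 10.42 in inhibitory libraries. The limma adjusted p of Htr3a was 0.0883 and 0.0783 when inhibitory replicate 1 or 2 was left out.

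Crh, the precursor of corticotropin-releasing hormone, and Penk, the precursor of the enkephalins, were listed at 0 in all 4 libraries. Penk is overlapped on the opposite strand by the noncoding gene A830012C17Rik in GENCODE M21. No other gene in the set has an overlapping gene there. None of the 10 genes had the same 4 values as another gene with a value above 0.

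Levels were set against each other as linear values per kilobase of exon. Cck led in every library, with 8900 and 10500 per kilobase in excitatory libraries and 7230 and 7010 in inhibitory libraries. In excitatory libraries Sst came next, with 2060 and 1780 per kilobase. Pdyn, with 1070 and 1620, and Npy, with 1410 and 1170, overlapped there and were not separated by their spread. In inhibitory libraries Npy came second, with 2400 and 2290 per kilobase, followed by Sst with 450 and 505. Cort, with 264 and 307 per kilobase in excitatory libraries and 194 and 148 in inhibitory libraries, was below Pdyn in the excitatory and above it in the inhibitory libraries, where Pdyn had 55.5 and 49.8.

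As a share of the linear values per kilobase summed over the 10 genes, Cck took 64.1% and 68.0% in excitatory libraries and 70.0% and 70.1% in inhibitory libraries. Npy took 10.1% and 7.57% in excitatory libraries, against 23.2% and 22.9% in inhibitory libraries. Sst took 14.8% and 11.6% in excitatory libraries, against 4.36% and 5.05% in inhibitory libraries. Pdyn took 7.71% and 10.5% in excitatory libraries and 0.537% and 0.498% in inhibitory libraries. The 10 genes together were 0.0194% and 0.0236% of all linear values in excitatory libraries and 0.0194% and 0.0184% in inhibitory libraries. Cck had a level per kilobase at or above that of 93.9% and 95.0% of the genes above 0 in excitatory libraries and of 95.2% and 94.8% in inhibitory libraries.

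Ratios between the genes within a library do not depend on the scaling between libraries. Sst over Npy was 0.90 and 0.96 on the log2 scale in excitatory libraries, against -2.06 and -1.83 in inhibitory libraries. Per kilobase too, Sst exceeded Npy in each excitatory library and was below it in each inhibitory library. Pdyn over Npy was 1.68 and 2.54 in excitatory libraries, against -3.36 and -3.45 in inhibitory libraries. Cort over Cck moved least, with -5.86 and -5.87 in excitatory libraries and -6.00 and -6.34 in inhibitory libraries.

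**Figure D3:**
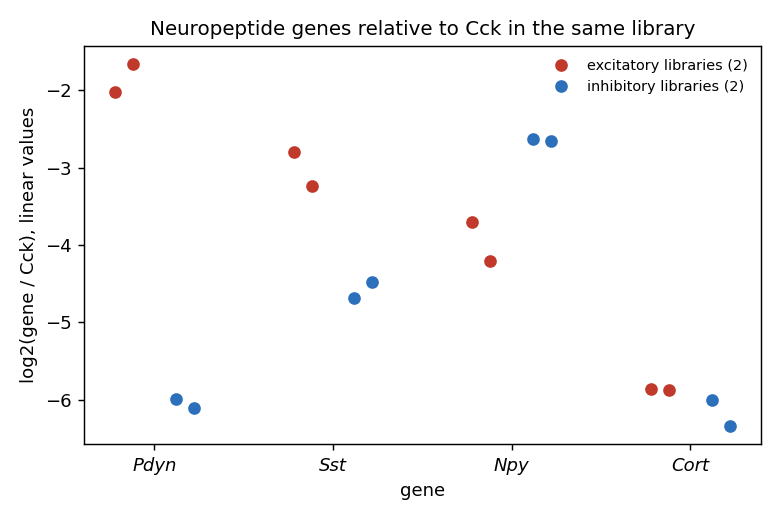
Log2 ratio of Pdyn, Sst, Npy and Cort to Cck in the same library (vertical axis), for the 2 excitatory (red) and 2 inhibitory (blue) libraries. Pdyn and Sst are higher relative to Cck in excitatory libraries and Npy in inhibitory libraries, and the ratio of Cort to Cck moves least.

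The receptors of these peptides were split between the labels. Of 23 receptor and binding protein genes, 11 were listed at 0 throughout and 10 were tested, of which 4 were higher in excitatory and 4 in inhibitory libraries, against 71.8% of all genes called. After scaling the counts were 3 and 5, against 65.8%. The median difference of the 10 genes was -0.25.

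The somatostatin receptor genes ran opposite to Sst itself. Sstr1 had 2.97 and 0.35 in excitatory libraries, against 8.14 and 8.45 in inhibitory libraries (limma adjusted p = 0.00286). Sstr2, with 4.23 and 5.39, and Sstr3, with 2.70 and 3.81 in inhibitory libraries, were listed at 0 in each excitatory library. Calls were lost for Sstr1 without inhibitory replicate 1 (limma adjusted p = 0.106) or 2 (0.111), for Sstr2 without excitatory replicate 1 (0.0655) or 2 (0.0654), and for Sstr3 without excitatory replicate 1 (0.0977) or 2 (0.0969). Sstr4 and Sstr5 were listed at 0 throughout.

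Of the neuropeptide Y receptor genes, Npy2r, Npy4r, Npy5r and Npy6r were listed at 0 in all 4 libraries. Npy1r was higher in excitatory libraries, where Npy was lower. It had 10.20 and 9.93 in excitatory libraries, against 6.47 and 7.00 in inhibitory libraries, a difference of 3.33 (SE 0.31, limma adjusted p = 0.000731, or 10.1-fold). It was 2.79 after scaling (adjusted p = 0.00139). Cckbr, the main brain receptor gene for cholecystokinin, had 7.22 and 6.90 in excitatory libraries but stood at 0 in each inhibitory library (limma adjusted p = 0.000143). Cckar had 2.67 and 2.29 in excitatory libraries and stood at 0 in both inhibitory ones. These Cckar values are near 0 and rest on few reads. Cckbr and Cckar entered the test only through the excitatory libraries.

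Crhr1, the receptor gene for corticotropin-releasing hormone, was listed at 0 in each excitatory library. It had 9.56 and 9.26 in inhibitory libraries (limma adjusted p = 9.5e-05) and entered the test only through them. Crh itself was at 0 throughout. Vipr2, a receptor gene for vasoactive intestinal peptide, had 4.90 and 6.13 in excitatory libraries and 3.77 and 2.97 in inhibitory libraries. It passed in the deposited values (limma adjusted p = 0.0265), not after scaling (0.0806) and not without any 1 library (0.0816 to 0.224). Tacr1, the substance P receptor gene, had 5.99 and 6.11 in excitatory libraries and 4.38 and 5.39 in inhibitory libraries and did not pass (limma adjusted p = 0.0773). Among the opioid receptors, Oprm1 had 4.55 and 4.62 in excitatory libraries and 5.48 and 7.01 in inhibitory libraries (limma adjusted p = 0.0591). Oprk1, the dynorphin receptor gene, was listed at 0 in 3 libraries and had 1.83 in inhibitory replicate 2.

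**Figure D4:**
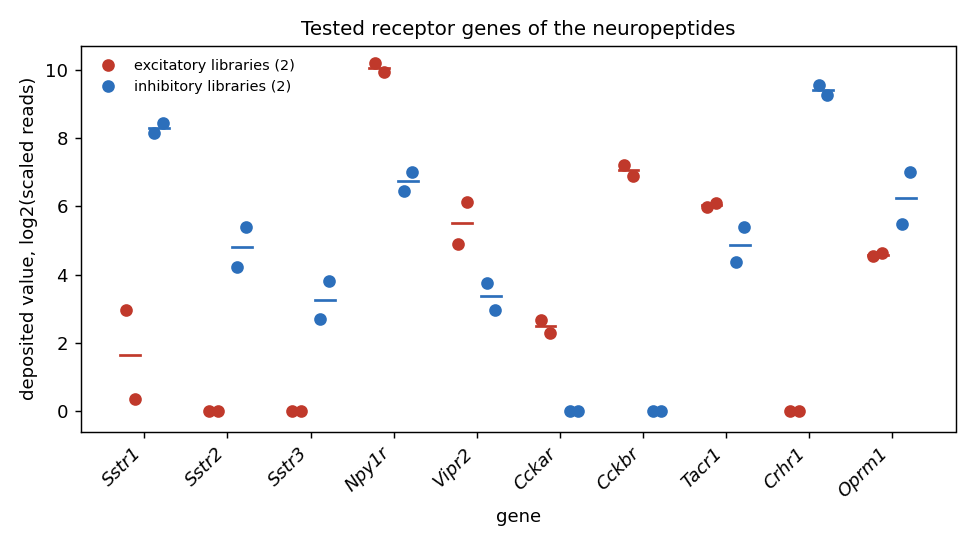
Deposited value (log2(scaled reads), vertical axis) of the 10 tested receptor genes (horizontal axis) in the 2 excitatory (red) and 2 inhibitory (blue) libraries; lines are means, drawn where both libraries are above 0. Sstr1, Sstr2, Sstr3 and Crhr1 lie higher in the inhibitory libraries, and Npy1r, Vipr2, Cckar and Cckbr in the excitatory libraries.

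Enzymes that cut and finish the precursors were present under both labels. Of 14 tested, 6 were higher in excitatory and 2 in inhibitory libraries, against 45% and 26.8% of all tested genes. After scaling 4 and 4 were called, against 32.3% and 33.5%. The median difference of the list was 0.42. Pcsk1, the gene of a convertase of the regulated pathway, was listed at 0 in all 4 libraries. Its relative Pcsk2 had 9.75 and 9.81 in excitatory libraries and 10.19 and 10.15 in inhibitory libraries and did not pass (limma adjusted p = 0.124), though it did after scaling (-0.93, adjusted p = 0.0117). Cpe, the carboxypeptidase that trims the cut ends, had 19.26 and 19.23 in excitatory libraries and 18.66 and 18.69 in inhibitory libraries, a difference of 0.57 that was 0.04 after scaling (limma adjusted p = 0.406). Pcsk7, another convertase gene, had 6.96 and 6.53 in excitatory libraries but stood at 0 in both inhibitory ones. Pcsk5 and Pcsk6, also of the convertase family, were higher in excitatory libraries by 5.08 (SE 0.38) and 3.21 (SE 0.33), and Pcsk6 lost its call without excitatory replicate 1 (limma adjusted p = 0.058) or 2 (0.0509). Rnpep, an aminopeptidase gene, was listed at 0 in each excitatory library and had 9.18 and 9.28 in inhibitory ones.

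The genes of dense-core vesicles were called in both directions, in shares near the background. Of 16 tested, 8 were higher in excitatory and 4 in inhibitory libraries, against 45% and 26.8% of all tested genes. After scaling 6 and 6 were called, against 32.3% and 33.5%. The median difference was 0.75. The granin gene Chga had 9.09 and 8.73 in excitatory libraries but stood at 0 in each inhibitory library. The granin genes Scg2 and Chgb went the opposite way. Scg2 had 3.38 and 1.90 in excitatory libraries, against 11.32 and 11.46 in inhibitory libraries (limma adjusted p = 0.000257), and Chgb had 6.64 and 7.26 against 10.07 and 10.49 in inhibitory libraries. Chgb no longer passed when inhibitory replicate 2 was left out (limma adjusted p = 0.0544). Scg3, a granin-related sorting protein gene, had 15.82 and 15.78 in excitatory libraries and 15.76 and 15.83 in inhibitory libraries. Its difference did not pass in the deposited values (limma adjusted p = 0.954), and was -0.53 after scaling (adjusted p = 0.00174). Vgf, with 6.52 and 6.58 in excitatory libraries and 5.43 and 6.25 in inhibitory libraries, did not pass (limma adjusted p = 0.175). Cadps2, which primes vesicles for release, had 5.70 and 6.18 in excitatory libraries, against 12.84 and 12.42 in inhibitory libraries, while its relative Cadps was 1.17 higher in excitatory libraries (SE 0.20). Cadps no longer passed when excitatory replicate 1 (limma adjusted p = 0.122) or 2 (0.115) was left out, or after scaling (0.0612). Ptprn, a vesicle membrane protein gene, was higher in excitatory libraries by 2.02 (SE 0.20, limma adjusted p = 0.000855).

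Of 6 tested genes of enzymes that degrade peptides, 1 was higher in excitatory and 3 in inhibitory libraries, against 45% and 26.8% of all tested genes, and the counts were the same after scaling. The median difference of the 6 was -1.32. Ece2, a metalloprotease gene, had 11.43 and 11.48 in excitatory libraries but stood at 0 in each inhibitory library. Thop1, the thimet oligopeptidase gene, was listed at 0 in each excitatory library and had 8.59 and 8.48 in inhibitory libraries. Ide, the insulin-degrading enzyme gene, had 9.28 and 9.22 in excitatory libraries, against 12.34 and 12.05 in inhibitory libraries. Mme, the neprilysin gene, was among 6 genes of this list at 0 throughout.

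**Figure D5:**
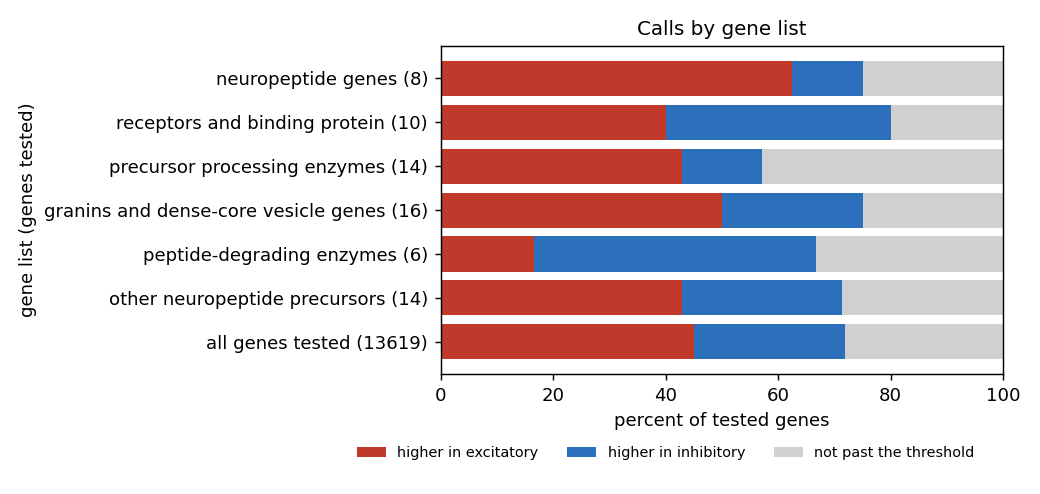
Percent of tested genes (horizontal axis) that were higher in excitatory libraries (red), higher in inhibitory libraries (blue) or not past the threshold (grey), by gene list with the number tested. The bar of all genes tested, with 45% and 26.8% called, is the background for the lists above it.

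Transcripts of glia were present beside the neuropeptide genes in all 4 libraries. The counts that follow stand against 45% of all tested genes called higher in excitatory and 26.8% in inhibitory libraries, and after scaling against 32.3% and 33.5%. Of 8 astrocyte markers, 6 were higher in excitatory libraries and 0 in inhibitory libraries, with a summed level of 20.96 to 20.98 in excitatory and 20.18 to 20.27 in inhibitory libraries. After scaling 3 and 2 were called. Of 8 oligodendrocyte markers 5 and 0 were called, and 5 and 2 after scaling, with a summed level of 21.48 to 21.51 in excitatory libraries and 21.39 in each inhibitory library. Of 8 microglia and leukocyte markers 0 and 5 were called, and 0 and 7 after scaling, with a summed level of 14.57 to 14.74 in excitatory and 15.61 to 15.91 in inhibitory libraries. Where limma called 0 genes in the deposited values it also called 0 there at an unadjusted p under 0.05. The summed level of the neuropeptide genes was 13.93 to 14.16 in excitatory and 13.29 to 13.34 in inhibitory libraries. Of the glial and leukocyte markers, Ptprc was listed at 0 in each excitatory library and none was at 0 in all 4. The part of these markers in the neuropeptide differences was not tested.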

How the data were processed

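Total RNA of 100 hand-picked cells per library was made into cDNA with the SMART-seq v4 kit and into libraries with the Nextera XT kit, per the labels' protocols. The authors' deposited tables hold 1 log2 value per gene and library. TopHat, edgeR and the build mm10 are named in the submitters' processing notes, without versions or roles. Once the log is undone, the low values fall in evenly spaced bands, with a step of 1.296 and 1.234 in the excitatory libraries and 0.721 and 0.874 in the inhibitory libraries. With no constant taken off, the lowest band lies at 1.01 steps in each excitatory library and at 1.93 and 1.98 steps in the inhibitory libraries. The values were therefore read as log2(scaled reads), with scaled reads under 1 listed at 0. Estimated reads are linear values on that spacing and serve only as a guide to depth. Depth itself is not in the tables, so no counting intervals were computed.

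In R 4.3.3, limma 3.58.1 with a mean-variance trend was fitted to the 13619 genes that reached 1 in 2 or more libraries, with 2 residual degrees of freedom. Exon lengths and overlaps are from GENCODE release M21 (95.7% of symbols matched); coordinates are on GRCm38, the assembly of mm10. Promoter sequences are from RefSeq and transcript sequences from GENCODE. No fold is given against a group listed at 0. Scaled values were put back on the log2 scale with values under 1 at 0. The fit was tested on simulated data with the same spread for every gene and changes only in genes with high values. That test does not cover genes listed at 0 in both libraries of 1 label.

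The 10 genes and all lists were chosen with earlier results of these data known. All 10 are described. Of the other lists, genes were named mostly by smallest p among those past the threshold, up to 4 per direction. Genes at 0 throughout 1 label and at 5 or more throughout the other could also be named. The rule was not followed in full, and Pcsk1n, Cpm, Hid1, Syt7, Dpp4, Nucb2 and Nppc, among others, met it and are not named. Pcsk1, Pcsk2, Pcsk6, Cadps, Scg3, Vgf, Mme, Oprk1, Oprm1 and Tacr1 fell outside the rule and were named after their values were seen. So were the receptor, precursor and interneuron genes outside it. Alternatives were 2 other scalings, an added constant of 10, no filter or a filter at 3, no trend, the replicate number as a block, and leaving out each library. Some genes of the marker lists are not reported here.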

Additional observations from a re-analysis of the deposited data

How the results depend on the processing

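Pdyn and Sst kept their direction and passed under every alternative run, with differences of 4.11 to 4.94 and 1.47 to 2.11. Cck was -0.10 after median-of-ratios and -0.082 after upper-quartile scaling, and its 0.44 did not pass without the mean-variance trend (limma adjusted p = 0.116). The cause was not tested. Leaving out each library in turn gave 6103 to 6551 called genes, against 9777 with all 4, and 2 to 7 called neuropeptide genes, against 6. Over the same fits the difference of Npy ran from -1.01 to -0.74 and that of Cck from 0.32 to 0.56. The adjusted p ran from 0.00143 to 0.0755 for Tac1, from 0.00143 to 0.0931 for Cartpt and from 0.00143 to 0.336 for Vip. In these fits the label with 1 library left is assumed to vary like the other, and without an excitatory library the spread of Tac1, Cartpt and Vip comes from values listed at 0. With a replicate block Vip passed (limma adjusted p = 0.0212), and 9782 genes and 7 neuropeptide genes were called. The labels do not say that the numbers pair the libraries, and their deviations did not go together (Pearson's r = -0.002 across 13619 genes). Genes near 0, such as Vip, rest on few reads.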

Other observations

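Of 45 other neuropeptide precursor genes, 25 were listed at 0 in all 4 libraries and 14 were tested, of which 6 were higher in excitatory and 4 in inhibitory libraries, near the background of 71.8% called, and 5 and 4 after scaling. The tachykinin precursor Tac2 was the reverse of Tac1: it stood at 0 in each excitatory library, with 5.11 and 5.45 in inhibitory libraries (limma adjusted p = 0.000321). Agrp, a hypothalamic precursor, was also at 0 in each excitatory library, with 7.51 and 7.06 in inhibitory libraries (limma adjusted p = 0.000144). Tac2 and Agrp entered the test only through the inhibitory libraries. Among opioid precursors, Pomc had 11.43 and 11.28 in excitatory libraries, against 9.91 and 9.57 in inhibitory libraries, a call lost without excitatory replicate 1 (limma adjusted p = 0.0638) or 2 (0.058). Pnoc, the nociceptin precursor, had 3.37 and 4.75 in excitatory libraries and was at 0 in both inhibitory ones, a call lost without inhibitory replicate 1 (limma adjusted p = 0.0905) or 2 (0.0896). Nts, the neurotensin precursor, had 8.72 and 8.09 in excitatory libraries, against 4.85 and 5.26 in inhibitory libraries, a call lost without inhibitory replicate 1 (limma adjusted p = 0.0568).

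Of precursor genes best known from the hypothalamus, Hcrt, Avp, Trh, Gnrh1, Ghrh, Npvf and Galp were at 0 in all 4 libraries, and the labels name no region. Kiss1 was at 0 in each excitatory library, with 3.344 and 3.13 in inhibitory libraries (limma adjusted p = 0.00136). These are low values, and Kiss1 entered the test only through them. Oxt had 0.386 and 1.275 in excitatory libraries, was at 0 in both inhibitory ones and could not be tested. Pmch, the precursor of melanin-concentrating hormone, had 8.91 and 8.14 in excitatory libraries and 8.18 and 8.60 in inhibitory libraries and did not pass (limma adjusted p = 0.768). Of 8 hypothalamic transcription factor markers, Otp, Nr5a1, Fezf1 and Six6 were at 0 throughout. Of the 3 tested, Isl1 had 0.43 and 1.90 in excitatory libraries, against 9.35 and 9.30 in inhibitory libraries. Sim1 went the other way, with 6.64 and 7.16 in excitatory libraries and 4.52 and 4.61 in inhibitory libraries, a call lost without inhibitory replicate 1 (limma adjusted p = 0.0672) or 2 (0.0628). Lhx9 had 7.24 and 7.14 in excitatory libraries and 6.23 and 6.88 in inhibitory libraries and did not pass (limma adjusted p = 0.17). The striatal markers Drd2 and Adora2a were at 0 throughout, as was Penk. Of 4 tested striatal markers, 2 were higher in excitatory and 2 in inhibitory libraries, against 45% and 26.8% of all tested genes. After scaling the counts were again 2 and 2, against 32.3% and 33.5%. Rgs9 had 4.175 and 4.463 in excitatory libraries and was at 0 in both inhibitory ones (limma adjusted p = 0.000568). It entered the test only through the excitatory libraries. Ppp1r1b had 11.59 and 11.97 in excitatory libraries and 10.50 and 9.94 in inhibitory libraries, a call lost without any 1 library (limma adjusted p 0.0544 to 0.121). Foxp1 and Bcl11b were lower in excitatory libraries, with differences of -0.55 and -0.94, calls lost for Foxp1 without any 1 library (0.0612 to 0.183) and for Bcl11b without inhibitory replicate 1 (0.065) or 2 (0.07).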
